A study of Mus musculus with 12 samples.

Results

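RNA abundance of 9 genes of glutamine and transaminase metabolism was described in mouse prostate organoids, 3-dimensional cultures that derive here from the basal cells of the gland. The genes were Slc1a5, Slc38a2, Glul, Gls2, Glud1, Got1, Got2, Gpt and Gpt2. They were picked by symbol as genes of 1 pathway, with earlier results of these data known, from a table of 24674 genes, and each of the 9 had exactly 1 row. All 12 cultures came from wild-type C57BL/6 mice and fell into 4 groups of 3 replicates, which received vehicle, UK5099 alone, butyrate alone, or UK5099 and butyrate together (the combination). UK5099 is a blocker of the carrier that brings pyruvate into mitochondria, and butyrate is a histone deacetylase inhibitor. The sources do not say that replicates came from separate animals, so p-values measure the spread between these 3 cultures per group, which may be partly technical.

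Glutamine is taken up through sodium-dependent neutral amino acid transporters of the plasma membrane. Glutaminases split it into glutamate and ammonia, and glutamine synthetase runs the opposite way. Glutamate dehydrogenase and the transaminases turn glutamate into 2-oxoglutarate, which enters the tricarboxylic acid cycle. Aspartate transaminases move the amino group onto oxaloacetate and belong to the malate-aspartate shuttle. Alanine transaminases move it onto pyruvate, the substrate of the carrier that UK5099 blocks. The prostate epithelium is known for its secretion of citrate, an intermediate of the same cycle.

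The values were TPM (fragments divided by gene length, with every sample brought to a common total). Recovered depth was between 33251923 and 43499564 fragments per sample. Replicates were set against each other by chi-square per degree of freedom of their fragments. This was 6.29 to 6.64 for pairs that held replicate 1 of UK5099 or of the combination, and 1.93 to 2.65 for all other pairs, so these 2 libraries stood somewhat apart. Results that lose their call without either of them are named below. Summed TPM of 3 basal keratin and lineage markers ran from 3507 to 3547 in vehicle, 4486 to 4676 with butyrate, 8067 to 8320 with the combination and 9746 to 10238 with UK5099. The 3 luminal keratins summed to 4132 to 4301, 2241 to 2281, 1389 to 1576 and 2328 to 2487 TPM in the same order of groups, and 5 squamous markers to 49.4 to 51.7, 200 to 203, 649 to 855 and 589 to 689. Of the basal markers 2 were higher and 1 lower with butyrate (limma, adjusted p under 0.01). All 3 were higher with UK5099 and with the combination. Of 5 immune markers 2 had a row, and their sum was 23.8 to 24.8 TPM in vehicle, 66.2 to 68.6 with butyrate, 86.4 to 97.1 with the combination and 29.7 to 30.9 with UK5099. As 1 of these 2 was under 1 TPM in all samples, this sum was almost wholly that of 1 gene. The 6 fibroblast markers, 4 of them under 1 TPM in all samples, summed to 10.6 to 10.97 TPM with butyrate alone and to between 2.27 and 2.88 in the other 3 groups. With butyrate 1 of the 6 was higher and 1 lower (limma, adjusted p under 0.01). The sums of smooth muscle, endothelial and neuroendocrine markers stayed below 1. No marker with a row was at 0 in all samples. The part of these shifts in the results was not tested, and in bulk cultures fewer cells of a type cannot be told apart from less RNA per cell.

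The scaling between samples moved all genes together. Over the 13345 genes that averaged 1 TPM or more, the coefficient (difference of mean log2(TPM + 1)) against vehicle had a median of -0.12 with UK5099. Its median was -0.30 with butyrate and -0.41 with the combination. Median of ratios scaling, which sets the typical gene near no change, brought these medians to 0.0028, -0.034 and -0.032. Each coefficient below is therefore given as deposited and, where the direction or the test differs, also after median of ratios scaling.

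A gene is said to have changed when limma's adjusted p, by Benjamini-Hochberg over all 24674 genes, was under 0.01. All 9 genes entered these tests, with no filter on low values. With UK5099, 8 of the 9 changed, 5 higher and 3 lower, while 8.24% of all genes were higher and 24.7% lower. With butyrate 5 changed, 3 higher and 2 lower, against 9.7% and 35.9% of all genes. With the combination 8 changed, 4 higher and 4 lower, against 10.1% and 40.8%. With median of ratios scaling the counts were 6 higher and 2 lower with UK5099 (13.5% and 13.7% of all genes), 7 higher and 0 lower with butyrate (18.5% and 20.3%), and 6 higher and 2 lower with the combination (21.7% and 22.5%). The genes counted as lower in each comparison were thus fewer after this scaling. These shares include genes with little or no RNA. In a fit of only the 13345 genes that averaged 1 TPM or more, 1701 were higher and 5299 lower with UK5099. With butyrate these were 1626 and 7836, and with the combination 1544 and 8698. The 9 genes themselves had median coefficients of 0.12, -0.031 and 0.063 with UK5099, butyrate and the combination, beside the -0.12, -0.30 and -0.41 of the 13345 genes.

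A coefficient beyond 1 in either direction was also required for the study's own call. Slc1a5 passed with UK5099, where 1.84% of all genes did, but its coefficient came to -0.92 after median of ratios scaling, -0.94 after quantile normalisation and -0.95 with voom, short of the limit of 1. Gpt passed with butyrate (3.54% of all genes). Gpt and Glul passed with the combination (6.42%). Gls2, at 0.96 with the combination as deposited, was past 1 in each of the other 5 scalings, so that 3 members passed there. Of all 24674 genes, 1132 passed there after median of ratios, 1113 after quantile normalisation and 3467 with voom. These were 1990 of 23913 per exonic length and 1442 of 15914 with nuclear protein-coding genes rescaled. Glul was also the single member past both limits for the interaction, the term that measures how far the combination departs from the sum of the single-drug coefficients (1.01% of all genes).

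**Figure D1:**
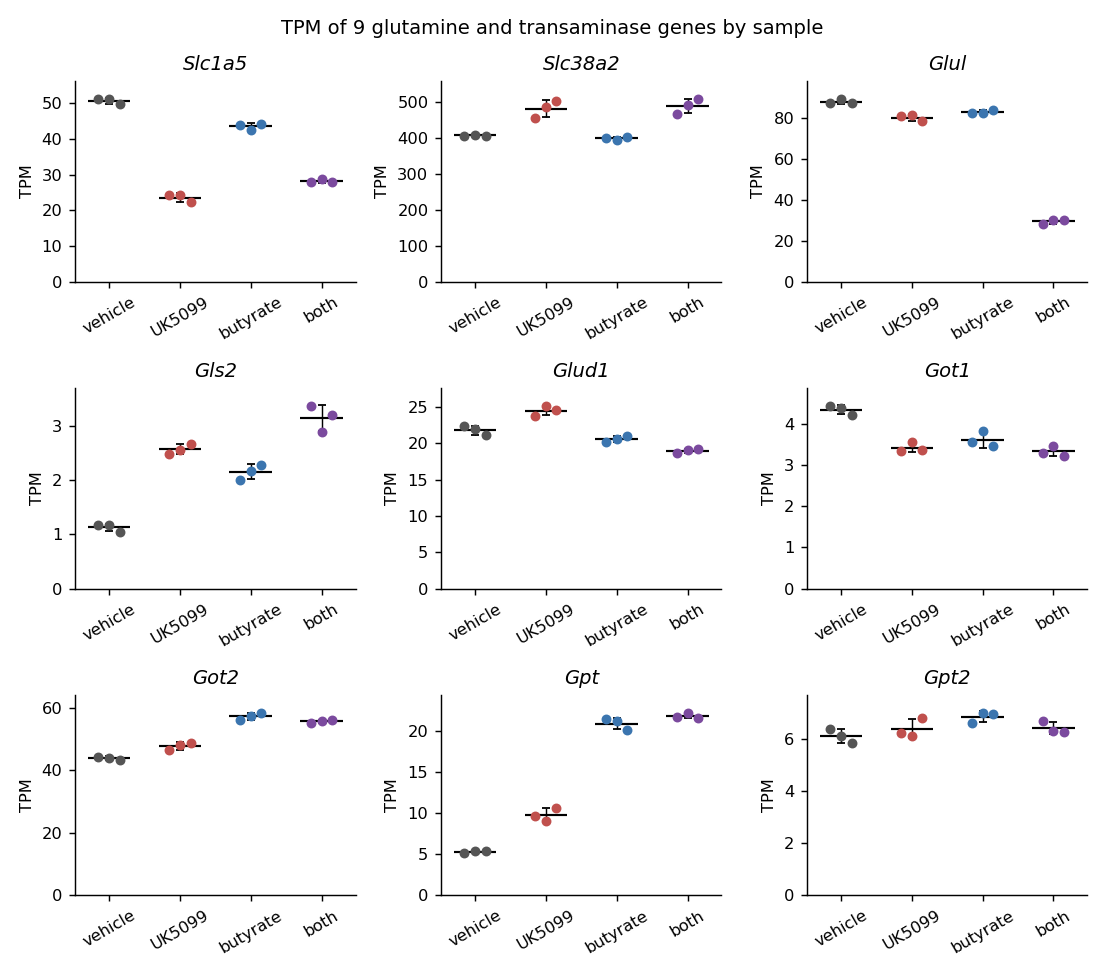
TPM of each gene in the 12 samples, on axes that start at 0. Points are replicates, horizontal lines are group means and vertical bars are SD (n = 3). Glul lies between 28.0 and 30.3 TPM in the combination and at 78.2 or above in every other sample, whereas Gpt rises in each treated group.

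The levels of the 9 genes were set side by side per exonic length, because the deposited TPM divides by the whole genomic span. In vehicle Slc38a2 was the most abundant, at 320 ± 1.91 TPM per exonic length (SD, n = 3). It was followed by Glul at 146 ± 1.58, Got2 at 125 ± 1.06, Slc1a5 at 116 ± 1.37 and Glud1 at 101 ± 2.32. A second tier held Got1 at 24.0 ± 0.519 and Gpt2 at 21.3 ± 0.847. Gpt at 4.06 ± 0.107 and Gls2 at 2.85 ± 0.164 were the least abundant. No neighbours in this order overlapped between replicates. With the combination Slc38a2 (420 ± 19.1) and Got2 (173 ± 2.38) led, and Glul, at 53.4 ± 2.69, had moved from the second to the fifth place, below Glud1 (95.6 ± 1.90) and Slc1a5 (70.5 ± 1.80). Gpt, at 18.2 ± 0.325, had come close to Got1, at 20.1 ± 0.805, without overlap. Only in the UK5099 group did neighbours overlap, Got2 at 138 ± 1.91 and Glul at 135 ± 3.93. All values in the following paragraphs are TPM as deposited.

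Slc1a5 encodes ASCT2, an exchanger of neutral amino acids and a main route of glutamine uptake (chromosome 7, 16515265 to 16532200, plus strand; positions are those of the deposited table, and the submitters' processing notes name GRCm39). It lay at 51.1, 51.1 and 49.6 TPM in vehicle and at 24.2, 24.3 and 22.2 TPM with UK5099. With butyrate it lay at 43.8, 42.5 and 44.2 TPM and with the combination at 27.8, 28.9 and 28.0 TPM. All 4 groups were apart, with UK5099 lowest and the combination next. UK5099 left 46.6% of the vehicle mean, a coefficient of -1.07 ± 0.033 (SE, adjusted p = 1.89e-08). The combination left 55.8%, a coefficient of -0.82 (adjusted p = 1.67e-08), which was -0.37 under median of ratios scaling (adjusted p = 1.63e-05). Butyrate alone gave -0.21 (adjusted p = 0.00037), but this turned to 0.095 after median of ratios scaling (adjusted p = 0.0566). Where butyrate was added to UK5099, Slc1a5 was higher than with UK5099 alone by 0.25 (adjusted p = 0.000129), and by 0.56 after median of ratios scaling.

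Slc38a2 encodes SNAT2, a sodium-coupled transporter of small neutral amino acids that is known to be induced when amino acids are short (chromosome 15, 96585273 to 96597612, minus strand). It lay at 406, 409 and 406 TPM in vehicle, 454, 487 and 502 with UK5099, 399, 393 and 403 with butyrate, and 467, 492 and 507 with the combination. Both groups with UK5099 lay above both groups without it, with no overlap, and replicate 1 was the lowest in each of them. The coefficient was 0.24 ± 0.038 with UK5099 (SE, adjusted p = 0.000673) and 0.26 with the combination (adjusted p = 0.000188). Median of ratios scaling gave 0.39 and 0.73, with the same calls. Without UK5099 replicate 1 the first was 0.28 and without combination replicate 1 the second was 0.30. For butyrate it was -0.031 (adjusted p = 0.558) as deposited and 0.28 after median of ratios scaling (adjusted p = 7.53e-05). The interaction coefficient was 0.054 ± 0.054 (adjusted p = 0.593), so no departure from the sum of both drugs was detected for this gene. The 2 transporters thus moved in opposite directions with UK5099.

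Glul encodes glutamine synthetase, which joins glutamate and ammonia (chromosome 1, 153775690 to 153785470, plus strand). Because its response to the combination departed most from the sum of the single responses, its promoter is shown, together with those of Got1 and Got2, a pair of isoenzymes that moved apart (below). The sequences are RefSeq, build GRCm38.p6, from 250 bases before to 50 after the annotated start. Capitals mark matches on either strand to the GC box GGGCGG, to the CCAAT box, to the composite element TGATGNAA and to the TATA box TATAAA. The E-box CACGTG was searched as well.
Glul, chr1:153899679-153899978, plus strand: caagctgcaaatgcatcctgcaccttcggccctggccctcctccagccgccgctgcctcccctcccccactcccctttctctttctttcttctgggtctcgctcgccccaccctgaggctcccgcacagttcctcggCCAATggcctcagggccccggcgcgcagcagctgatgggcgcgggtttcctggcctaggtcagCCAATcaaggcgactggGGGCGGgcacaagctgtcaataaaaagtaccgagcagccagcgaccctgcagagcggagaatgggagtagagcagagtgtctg
Got1, chr19:43524556-43524855, minus strand: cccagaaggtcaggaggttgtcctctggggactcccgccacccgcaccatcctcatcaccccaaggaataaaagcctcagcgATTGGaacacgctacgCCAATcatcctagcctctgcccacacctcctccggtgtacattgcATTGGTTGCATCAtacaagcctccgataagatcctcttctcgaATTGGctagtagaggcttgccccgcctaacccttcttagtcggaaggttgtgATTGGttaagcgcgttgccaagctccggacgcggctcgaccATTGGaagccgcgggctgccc
Got2, chr8:95888352-95888651, minus strand: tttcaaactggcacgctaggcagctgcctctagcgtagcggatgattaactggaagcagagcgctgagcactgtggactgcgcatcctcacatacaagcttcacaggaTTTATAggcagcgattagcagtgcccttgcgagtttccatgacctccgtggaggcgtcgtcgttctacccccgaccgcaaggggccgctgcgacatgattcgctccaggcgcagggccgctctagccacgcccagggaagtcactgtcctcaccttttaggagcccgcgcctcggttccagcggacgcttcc
The Glul stretch held 1 GGGCGG and 2 CCAAT matches, the Got1 stretch 6 CCAAT and 1 TGATGNAA, which abuts a CCAAT match of the same strand, and the Got2 stretch 1 TATAAA. Among 32851 RefSeq promoters of this length, 35.7% held GGGCGG, 37.4% CCAAT, 3.97% TGATGNAA, 13.6% TATAAA and 7.15% CACGTG, which none of these stretches held. GC content was 64.3% for Glul, 57.3% for Got1 and 60% for Got2, and the median of all promoters was 52.7%. Sequences were found for 6 of the 9 genes, with Glud1, Gpt2 and Slc38a2 also matched, and Gls2, Gpt and Slc1a5 not used here.

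Glul stood at 87.5, 89.1 and 87.3 TPM in vehicle, at 80.7, 81.3 and 78.2 with UK5099 and at 82.6, 82.6 and 83.7 with butyrate. With the combination it stood at 28.0, 30.3 and 30.3 TPM, far below every other sample. The combination left 33.6% of the vehicle mean, with a coefficient of -1.54 ± 0.029 (SE, adjusted p = 1.67e-10). Against UK5099 alone it was lower by a coefficient of -1.41 (adjusted p = 1.4e-09) and against butyrate alone by -1.46 (adjusted p = 4.2e-09). Over 6 ways of scaling the values, the coefficient against vehicle ran from -1.54 to -1.09 and passed in all 6. Each drug alone left Glul near vehicle. UK5099 gave -0.13 (adjusted p = 0.00453), which was 0.014 after median of ratios scaling (adjusted p = 0.79) and which missed the limit without UK5099 replicate 1 (adjusted p = 0.0118), without UK5099 replicate 3 and without each vehicle replicate in turn. Butyrate gave -0.083 as deposited (adjusted p = 0.0377, or 0.00259 without combination replicate 1) and 0.23 after median of ratios scaling (adjusted p = 0.000107). The interaction coefficient was -1.33 ± 0.041 (adjusted p = 1.51e-07) and lay between -1.36 and -1.32 over the 6 scalings. The only overlapping gene in the table, Teddm2 on the opposite strand, shares 286 bp with Glul and did not exceed 0.0903 TPM.

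Gls2 encodes the liver-type glutaminase, which releases ammonia from glutamine in mitochondria (chromosome 10, 128030326 to 128045874, plus strand). It was the least abundant member, with 117 to 577 recovered fragments per sample. Its values were 1.17, 1.17 and 1.05 TPM in vehicle, 2.49, 2.55 and 2.67 with UK5099, 2.01, 2.17 and 2.29 with butyrate, and 3.37, 2.89 and 3.19 with the combination. The 4 groups did not overlap, in the order vehicle, butyrate, UK5099 and combination. Mean TPM was 2.28 times vehicle with UK5099, 1.91 times with butyrate and 2.79 times with the combination. The coefficients were 0.75, 0.57 and 0.96, each ± 0.048 (SE, adjusted p = 1.63e-06, 4.4e-06 and 6.46e-08). At this level the log2(TPM + 1) scale understates the change, and voom on recovered fragments gave 1.34, 1.25 and 1.95. The step from UK5099 to the combination was 0.21 (adjusted p = 0.00393), and it missed the limit without UK5099 replicate 1 (adjusted p = 0.0168) and without combination replicate 1 (adjusted p = 0.0156), as well as without UK5099 replicate 2 or combination replicate 3. Gm52965, a lncRNA on the same strand inside Gls2, had means of 0.543, 1.02, 0.912 and 1.65 TPM in vehicle, UK5099, butyrate and the combination, and fragments could have been divided between both genes. Spryd4 on the other strand shares 98 bp with it.

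Glud1 encodes the mitochondrial glutamate dehydrogenase (chromosome 14, 34032684 to 34067223, plus strand). It lay at 22.3, 21.9 and 21.1 TPM in vehicle, 23.8, 25.1 and 24.5 with UK5099, 20.2, 20.6 and 20.9 with butyrate, and 18.6, 19.1 and 19.1 with the combination. UK5099 alone was the highest group and the combination the lowest. UK5099 raised it by a coefficient of 0.16 ± 0.025 (SE, adjusted p = 0.000645), in the same direction in all 6 scalings and up to 0.32. A fit of these 2 groups alone left it short of the limit (adjusted p = 0.0118). Butyrate gave -0.080 (adjusted p = 0.0242, or 0.00892 without vehicle replicate 3) and the combination -0.19 (adjusted p = 8.99e-05), but after median of ratios scaling these were 0.22 (adjusted p = 2.23e-05) and 0.25 (adjusted p = 7.5e-06). The direction of Glud1 against vehicle in the groups with butyrate thus depended on the scaling. The difference of the combination from butyrate, -0.11 (adjusted p = 0.00622), missed the limit without combination replicate 1 (adjusted p = 0.0261), without either of the other combination replicates and in 4 more leave-outs. The interaction did not turn, at -0.27 ± 0.036 (adjusted p = 0.000564) and between -0.31 and -0.26 over the scalings.

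Got1 encodes the cytosolic aspartate transaminase (chromosome 19, 43488191 to 43513045, minus strand). It lay at 4.43, 4.397 and 4.22 TPM in vehicle, 3.34, 3.56 and 3.38 with UK5099, 3.56, 3.82 and 3.46 with butyrate, and 3.31, 3.47 and 3.23 with the combination. Every treated sample lay below every vehicle sample, and the treated groups overlapped. The coefficient was -0.27 ± 0.034 with UK5099 (SE, adjusted p = 0.000138), -0.21 with butyrate (adjusted p = 0.000419) and -0.30 with the combination (adjusted p = 2.89e-05). Median of ratios scaling left -0.15 for UK5099 (adjusted p = 0.00991), 0.038 for butyrate (adjusted p = 0.46) and 0.065 for the combination (adjusted p = 0.178).

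Got2 encodes the mitochondrial aspartate transaminase (chromosome 8, 96590762 to 96615176, minus strand). It lay at 44.4, 43.9 and 43.2 TPM in vehicle, 46.5, 48.1 and 48.7 with UK5099, 56.2, 57.3 and 58.3 with butyrate, and 55.1, 55.8 and 56.1 with the combination. Both groups with butyrate lay above both groups without it. Got2 rose by 0.12 ± 0.021 with UK5099 (SE, adjusted p = 0.000974), 0.38 with butyrate (adjusted p = 1.89e-07) and 0.34 with the combination (adjusted p = 2.69e-07), and it rose in all 6 scalings. The UK5099 call missed the limit in a fit of these 2 groups alone (adjusted p = 0.0125). Over the scalings the coefficient reached 0.27 with UK5099, 0.81 with the combination and 0.74 with butyrate. The interaction was -0.16 ± 0.029 (adjusted p = 0.00365) and missed the limit without combination replicate 1 (adjusted p = 0.0102), and likewise without UK5099 replicate 2, butyrate replicate 2 or vehicle replicate 3. Gm45760, which overlaps it on the opposite strand, stayed at 0.751 TPM or below.

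Gpt encodes the cytosolic alanine transaminase (chromosome 15, 76579916 to 76583887, plus strand). It lay at 5.21, 5.38 and 5.43 TPM in vehicle, 9.62, 9.09 and 10.7 with UK5099, 21.4, 21.2 and 20.1 with butyrate, and 21.8, 22.2 and 21.6 with the combination. Vehicle, UK5099 and the 2 groups with butyrate formed 3 separate levels, with the combination just above butyrate alone. UK5099 raised it 1.83 times, with a coefficient of 0.76 ± 0.047 (SE, adjusted p = 1.29e-06). Butyrate raised it 3.92 times, with a coefficient of 1.79 (adjusted p = 2.26e-09), and the combination 4.09 times, with 1.85 (adjusted p = 8.78e-10). UK5099 on top of butyrate added 0.062 (adjusted p = 0.388), or 0.20 after median of ratios scaling (adjusted p = 0.00938). The interaction coefficient was -0.70 ± 0.067 (adjusted p = 8.23e-05), the opposite sign to both single coefficients. An unnamed lncRNA on the other strand shares 267 bp with Gpt and had means of 2.16 TPM in vehicle and 0.796 TPM with the combination.

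Gpt2 encodes the mitochondrial alanine transaminase (chromosome 8, 86219205 to 86254190, plus strand). It lay at 6.37, 6.12 and 5.83 TPM in vehicle, 6.22, 6.13 and 6.81 with UK5099, 6.59, 6.99 and 6.96 with butyrate, and 6.67, 6.32 and 6.27 with the combination. The groups overlapped apart from butyrate, whose samples lay above the vehicle samples. None of its coefficients passed as deposited, at 0.055 with UK5099 (adjusted p = 0.361), 0.14 with butyrate (adjusted p = 0.0165, or 0.00704 without UK5099 replicate 3) and 0.063 with the combination (adjusted p = 0.249). Under median of ratios scaling they were 0.18, 0.41 and 0.46 and all passed (adjusted p = 0.00548, 1.65e-05 and 5.81e-06).

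**Figure D2:**
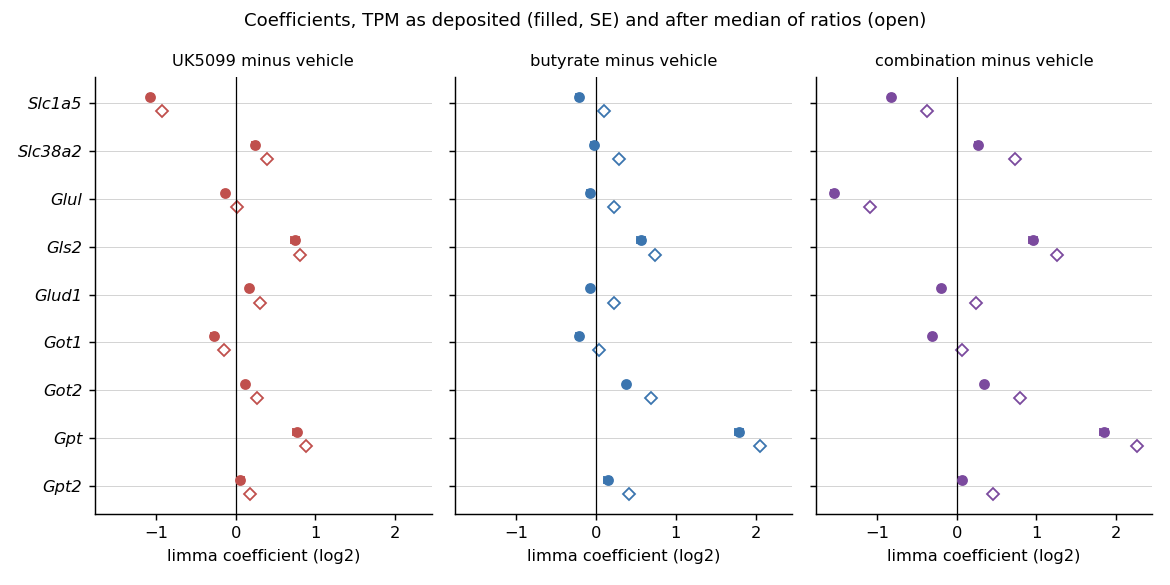
limma coefficients of each gene against vehicle on a log2 scale, for UK5099, butyrate and the combination. Filled points with SE bars use log2(TPM + 1) as deposited and open diamonds use the values after median of ratios scaling; for the combination Glul moves from -1.54 to -1.09 and Gpt from 1.85 to 2.26, without a change of sign.

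Ratios between paired genes within a sample do not depend on the scaling between samples. In total 4 ratios were compared with against without each drug, within the levels of the other drug, by an exact two-sided permutation test over the 12 samples, whose smallest p is 0.005. The 8 p-values were adjusted together, and 0.05 was the limit for them. The Got1 to Got2 ratio was 0.0992 ± 0.00139 in vehicle (SD, n = 3), 0.0599 ± 0.00224 with the combination, 0.0631 ± 0.00370 with butyrate and 0.0717 ± 0.00238 with UK5099. On the log2 scale it was lower with UK5099 by a difference of -0.27 (exact p = 0.015, adjusted 0.02) and with butyrate by -0.46 (exact p = 0.005, adjusted 0.008). The first value averages -0.47 without butyrate and -0.074 with it, where replicates of butyrate and the combination overlapped. The second averages -0.65 without UK5099 and -0.26 with it, with no overlap. The cytosolic form was lower relative to the mitochondrial form in every treated group than in vehicle.

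The alanine transaminases moved the other way. The Gpt2 to Gpt ratio was 1.14 ± 0.0754 in vehicle, 0.294 ± 0.0116 with the combination, 0.328 ± 0.0194 with butyrate and 0.653 ± 0.0186 with UK5099. The log2 differences were -0.48 with UK5099 and -1.48 with butyrate (exact p = 0.005, adjusted 0.008 for each). The first averages -0.81 without butyrate and -0.16 with it, and the second -1.80 without UK5099 and -1.15 with it. Here the mitochondrial form was lower relative to the cytosolic form. These ratios use TPM per genomic span, so their level is not that of molecules, while their change between groups does not depend on length.

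The ratio of Glul to Glud1, enzymes that both draw on glutamate, was 4.03 ± 0.109 in vehicle, 4.03 ± 0.0487 with butyrate, 3.27 ± 0.106 with UK5099 and 1.56 ± 0.0480 with the combination. It was lower with UK5099 by a log2 difference of -0.84 (exact p = 0.005, adjusted 0.008), which averages -0.30 without butyrate and -1.37 with it. For butyrate the difference was -0.54 (exact p = 0.05, adjusted 0.0571), an average over a stratum in which the ratio equalled vehicle and one in which it fell. The Slc1a5 to Slc38a2 ratio was 0.124 ± 0.00186 in vehicle, 0.109 ± 0.000971 with butyrate, 0.0579 ± 0.00229 with the combination and 0.0492 ± 0.00458 with UK5099. It was lower with UK5099 by -1.13 (exact p = 0.005, adjusted 0.008), and with butyrate the difference was 0.025 (exact p = 0.76, adjusted 0.76). The latter averages opposite differences, -0.19 without UK5099 and 0.24 with it, in neither of which the groups overlapped.

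**Figure D3:**
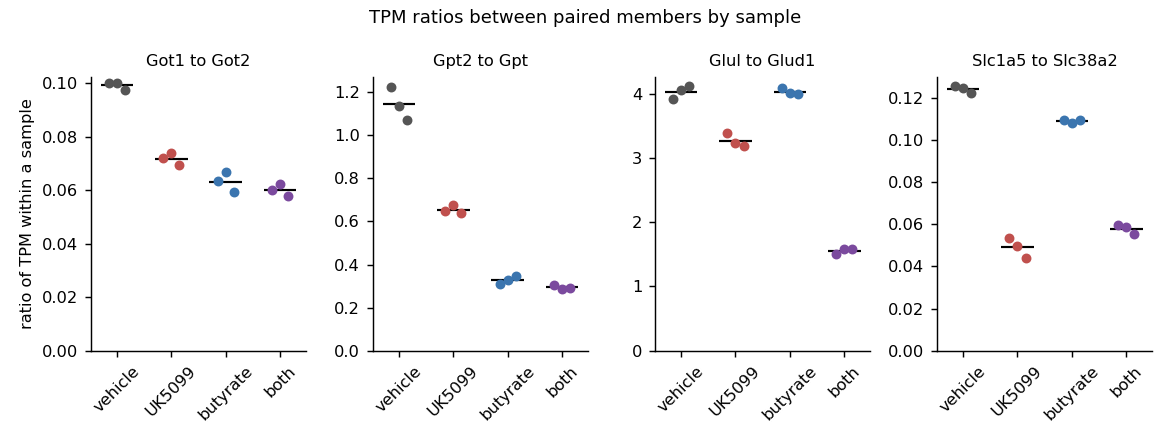
Ratio of the TPM of paired genes within each sample, by group, on axes that start at 0. Points are replicates and lines are means; the Glul to Glud1 ratio is near 4.03 in vehicle and butyrate and 1.56 in the combination, and the Slc1a5 to Slc38a2 ratio separates the groups with UK5099 from those without.

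The next comparison asked whether the combination equals the sum of the single coefficients. Of the 9 genes, 6 had an interaction, 1 higher and 5 lower than the sum, while 7.01% of all genes were higher and 6.38% lower. For Glul the single coefficients summed to -0.22, beside -1.54 observed. For Gpt the sum was 2.55, beside 1.85, and for Gls2 1.31, beside 0.96 (interaction -0.35 ± 0.068, adjusted p = 0.00534). The Gls2 interaction missed the limit after median of ratios scaling (adjusted p = 0.0127) and without any 1 of 8 samples, all vehicle replicates among them. For Slc1a5 the sum was -1.28, beside -0.82, an interaction of 0.47 ± 0.047 (adjusted p = 0.000121). For Glud1 the sum was 0.081, beside -0.19. Got1 (0.18, adjusted p = 0.0238, or 0.00858 without butyrate replicate 2), Gpt2 (-0.14, adjusted p = 0.154) and Slc38a2 did not pass. As deposited, Glul alone of these 6 had a combination coefficient beyond the sum in the direction of that sum, and Glud1 lay on the other side of 0. Median of ratios scaling turned both descriptions, with a sum of 0.24 beside -1.09 for Glul and of 0.52 beside 0.25 for Glud1. Slc1a5, Gls2, Got2 and Gpt fell short of their sums with either scaling.

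**Figure D4:**
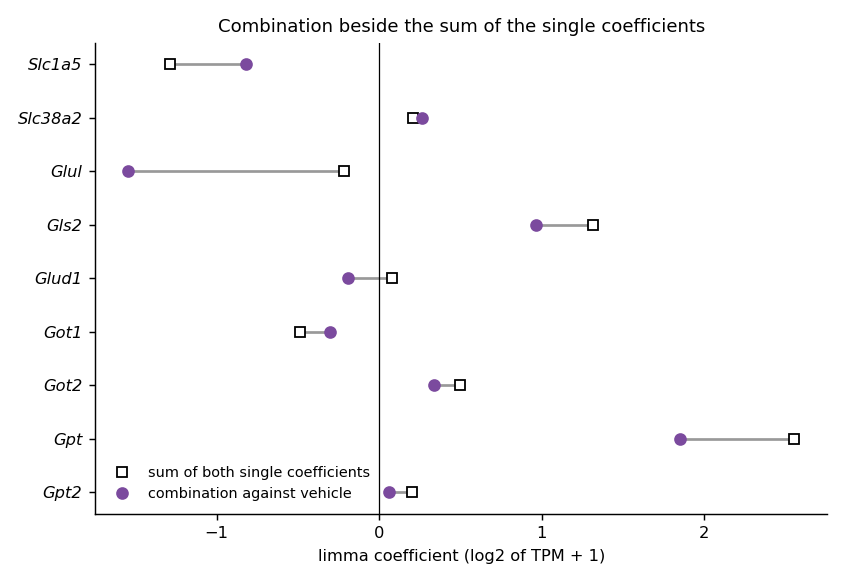
Coefficient of the combination against vehicle (filled circles) beside the sum of the UK5099 and butyrate coefficients (open squares), log2(TPM + 1) scale. The gap between the marks is the interaction, from -1.33 for Glul to 0.47 for Slc1a5.

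Between the combination and UK5099 alone, 6 of the 9 genes changed, 4 higher (Gls2, Got2, Gpt and Slc1a5) and 2 lower (Glul and Glud1), against 7.62% and 35.3% of all genes. Between the combination and butyrate alone 5 changed, 2 higher (Gls2 at 0.40 and Slc38a2 at 0.29) and 3 lower (Glul, Slc1a5 at -0.60 and Glud1), against 5.52% and 22% of all genes. Under median of ratios scaling Glud1 missed the limit against UK5099 (-0.053, adjusted p = 0.0826) and against butyrate (0.028, adjusted p = 0.437). Got1 (0.22), Gpt2 (0.28) and Slc38a2 (0.34) were then higher than with UK5099 alone, and Got2 (0.11) and Gpt (0.20) higher than with butyrate alone. These comparisons share the combination samples with each other and with those above.

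Genes whose group means, relative to vehicle, were most like each member were sought among 10105 protein-coding genes that averaged 1 TPM or more, by the root mean square difference over the 3 treated groups. For Glul they were Cep85 (0.13), Fkbp5 (0.18) and Lrrc26 (0.21), all with a combination mean far below vehicle. Cep85 went from 42.6 TPM in vehicle to 12.9 TPM with the combination, and Fkbp5 from 7.403 to 2.27. For Gpt they were Dapl1 (0.053), Igfbp4 (0.11) and Nr1d1 (0.15). For Slc1a5 they were Mfge8 (0.083), Golm1 (0.083) and Cited4 (0.10), and for Gls2 Cdc42ep2 (0.053), Bcl11b (0.063) and Metrnl (0.063). The other 5 genes had smaller changes and nearer neighbours. These were Atf7ip, Zfp58 and Zkscan6 for Glud1, Gemin6, Pdcd2 and Ccdc85c for Got1, and Rps24, Nap1l3 and Wdr89 for Got2. For Gpt2 they were Mgat5, Klhl5 and Suclg2, and for Slc38a2 Arhgef39, Crybg3 and Samd12. The closest of all was Atf7ip to Glud1, at 0.013. Likeness of 3 values says nothing of shared control.

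A list of 58 other genes of glutamine, glutamate and amino acid metabolism gave 53 with a row. Of these 6 were higher and 30 lower with UK5099 (8.24% and 24.7% of all genes), 10 and 26 with butyrate (9.7% and 35.9%), and 6 and 28 with the combination (10.1% and 40.8%). Median of ratios scaling made these 7 and 19 (13.5% and 13.7% of all genes), 17 and 14 (18.5% and 20.3%), and 21 and 14 (21.7% and 22.5%). The median coefficient of the list was -0.16, -0.054 and -0.16, and after that scaling -0.023, 0.017 and 0.0057. Of 11 glutamine-using amidotransferases and synthetases, most of which take nitrogen from glutamine, while Qars joins glutamine to its tRNA, 9 were lower with the combination and 0 higher, and 7 lower and 3 higher after that scaling. Of 7 other transaminases 4 were higher with the combination and 0 lower, and 5 and 0 after scaling. Of 18 other genes of amino acid transport 1 was higher and 10 lower with the combination, and 6 and 4 after scaling. Of 7 mitochondrial carriers and shuttle enzymes 1 was higher and 4 lower with the combination, and 3 and 2 after scaling. Of 10 genes from glutamate to proline and GABA 0 were higher and 5 lower, and 4 and 1 after scaling. The balance thus turned for the transport genes, the mitochondrial list and this last list.

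The list genes past both limits were 2 with UK5099 (1.84% of all genes), 1 with butyrate (3.54%) and 3 with the combination (6.42%). Slc7a5, the light chain of the LAT1 exchanger that trades intracellular glutamine for large neutral amino acids, lay at 52.3, 51.9 and 49.7 TPM in vehicle and 14.4, 14.4 and 14.6 with UK5099. It was 17.1, 19.1 and 18.3 TPM with the combination, and its coefficients were -1.75 and -1.45. Asns, which makes asparagine with glutamine as nitrogen donor, lay at 34.9, 34.6 and 33.6 TPM in vehicle and 15.6, 16.4 and 17.1 with UK5099, a coefficient of -1.03. Both genes, like Slc1a5, were higher in the combination than with UK5099 alone, by 0.31 for Slc7a5 (adjusted p = 4.3e-05) and 0.24 for Asns (adjusted p = 0.000427). With butyrate Slc7a8, another exchanger light chain, fell from 6.08, 5.82 and 5.92 TPM to 2.31, 2.14 and 2.27, a coefficient of -1.10. With the combination Kyat1, a transaminase that can use glutamine and kynurenine, lay at 8.67, 7.15 and 6.95 TPM against 2.15, 2.59 and 2.21 in vehicle, a coefficient of 1.37. Cad, which starts pyrimidine synthesis from glutamine, lay at 8.36, 9.36 and 9.56 TPM against 19.4, 19.0 and 19.1, a coefficient of -1.0004. Median of ratios scaling placed Cad at -0.57 and Slc7a5 at -0.999 with the combination, Asns at -0.88 with UK5099 and Slc7a8 at -0.84 with butyrate, all short of 1. Kyat1 stayed past it, at 1.73 with the combination, as did Slc7a5 with UK5099, at -1.60.

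**Figure D5:**
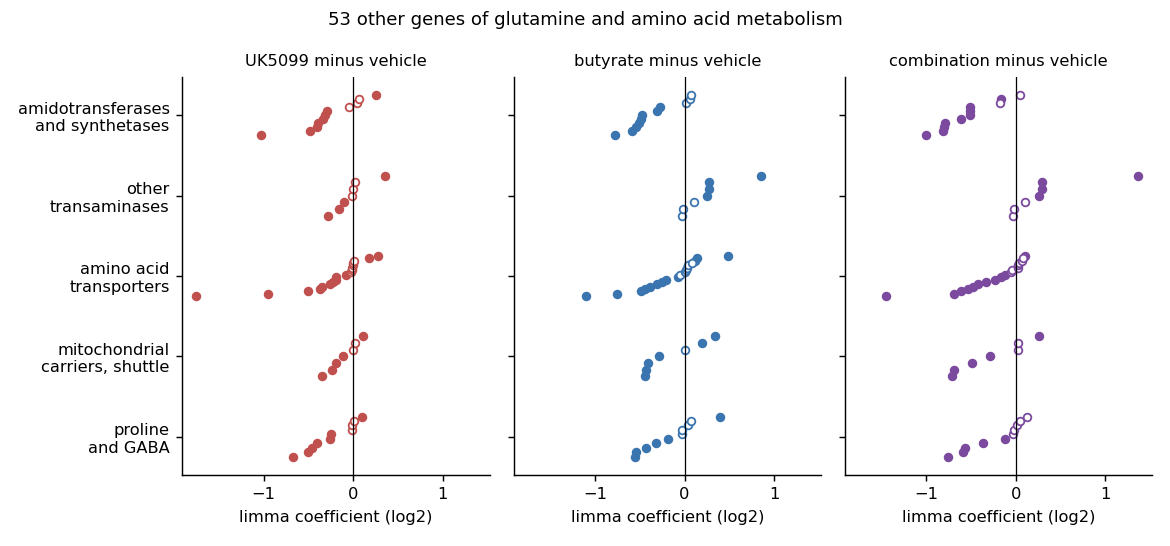
Coefficients against vehicle of the 53 other genes, by list and comparison (log2(TPM + 1) as deposited). Filled points passed the adjusted p limit of 0.01 and open points did not; Slc7a5 is the lowest point with UK5099 at -1.75 and Kyat1 the highest with the combination at 1.37.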

How the data were processed

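RNA was sequenced from 12 organoid cultures in 4 groups of 3, grouped by the sample labels. In the methods, the authors used fastp for trimming, STAR with GRCm38 for alignment and RSEM for TPM, while the submitters' processing notes name STAR 2.7.9a, Partek and GRCm39. The deposited values are TPM per gene. They divide by genomic span, introns included: in 100% of genes the length column equals stop minus start (median 11598 bp, median exonic length 3006 bp). Only 2.08% of nuclear genes sat at GRCm38 positions, so positions are printed as the table gives them. Exonic lengths came from GENCODE M21 by gene identifier (23913 genes).

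Depth was recovered from the step between low values, the worth of 1 fragment in a sample. Of protein-coding values under 1000 fragments, 75.5% to 76.8% were whole within 0.02 of a fragment. The methods name a stranded mRNA library kit and RSEM at its default settings. Whether the counting behind the deposited values used strand is not stated in the sources used here.

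limma 3.58.1 (R 4.3.3) was fitted to log2(TPM + 1) of all 12 samples and 24674 genes, with UK5099, butyrate and interaction terms, moderated variances and p-values adjusted by Benjamini-Hochberg. The model and the limits (adjusted p under 0.01, coefficient beyond 1) are the study's, and the pseudocount of 1 was chosen here. The fit and the step finder were tested on simulated data. The 9 genes, the pathway list and the marker lists were chosen with earlier results of these data known. Named list genes were up to 4 highest and 4 lowest coefficients past both limits per comparison with vehicle. Pycr3 was matched by its older symbol. The 6 scalings compared were TPM as deposited, median of ratios, quantile normalisation, voom on recovered fragments, rescaling of nuclear protein-coding genes to 1000000, and TPM per exonic length. Other pseudocounts, a filter at 1 TPM, another variance prior, a replicate block, fits of the 2 groups compared and leave-outs were also run. Other steps used Python 3.11.15 with pandas 2.3.3, numpy 2.4.6, matplotlib 3.10.9 and scipy 1.17.1.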

Additional observations from a re-analysis of the deposited data

Results flagged for a closer look

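The effect of each drug differed with the other drug present, by the interaction term of limma over all 24674 genes (adjusted p under 0.01), for 6 of the 9 genes. Of all genes, 7.01% had an interaction above 0 and 6.38% one below 0 by the same limit. The interaction coefficients on the log2(TPM + 1) scale were -1.33 for Glul, -0.70 for Gpt, -0.35 for Gls2, -0.27 for Glud1, -0.16 for Got2 and 0.47 for Slc1a5. In other words, UK5099 changed Glul by -0.13 in the absence of butyrate and by -1.46 in its presence, and it changed Gpt by 0.76 and 0.062. UK5099 changed Glud1 by 0.16 without butyrate and by -0.11 with it, a reversal in TPM as deposited, while after median of ratios scaling the second value was 0.028 (adjusted p = 0.437). Slc1a5 fell with UK5099 by a coefficient of -1.07 without butyrate and -0.60 with it. The Gls2 interaction missed the limit after median of ratios (adjusted p = 0.0127) and after quantile normalisation (adjusted p = 0.0383). That of Got2 missed it with pseudocounts of 0.1 (adjusted p = 0.0147) and 0.01 (adjusted p = 0.0258). Both also missed it in several leave-outs.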

How the results depend on the processing

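The trended prior and the filter at 1 TPM changed none of the 54 member coefficients' calls or directions, and pseudocounts of 0.1 and 0.01 ended 3 calls each. Scaling mattered most, turning 13 coefficients after median of ratios, 12 after quantile normalisation, 13 with voom on recovered fragments, 5 with protein-coding genes rescaled and 4 with TPM per exonic length. The number of members past both limits with UK5099, 1 as reported, was 2 with either other pseudocount and with voom, and 0 after median of ratios and after quantile normalisation. Of all 24674 genes, 454 passed both as reported, and 1034 and 1412 with pseudocounts of 0.1 and 0.01. These were 1431 with voom, 411 after median of ratios and 403 after quantile normalisation. Fits of the 2 groups compared ended 3 calls, Glud1 and Got2 with UK5099 and Gls2 in the combination against UK5099, and Glul passed with butyrate (-0.083, adjusted p = 0.00542), so that 6 members changed with UK5099, 3 of them higher, and 6 with butyrate. Of all 24674 genes, 6250 changed with UK5099 in those fits, 1553 of them higher, and 10401 changed with butyrate. With voom 8 members changed with butyrate and 2 passed both limits, while 10328 of all genes changed and 2600 passed both.

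After median of ratios the turned coefficients were, for UK5099 against vehicle, Glul 0.014. For butyrate against vehicle they were Glul 0.23, Glud1 0.22, Got1 0.038, Slc1a5 0.095 and Slc38a2 0.28, and for the combination against vehicle Glud1 0.25 and Got1 0.065. For the combination against UK5099 it was Got1 0.22, and against butyrate Glud1 0.028, Got1 0.027, Got2 0.11 and Gpt2 0.048. With voom the same order gave Glul 0.013 for UK5099, then for butyrate Glul 0.23, Glud1 0.23, Got1 0.048, Slc1a5 0.098 and Slc38a2 0.28, and for the combination Glud1 0.26 and Got1 0.082. Against UK5099 voom gave Got1 0.28, and against butyrate Glud1 0.029, Got1 0.034, Got2 0.11 and Gpt2 0.056.

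Quantile normalisation gave, for butyrate, Glul 0.24, Glud1 0.30, Got1 0.038, Slc1a5 0.16 and Slc38a2 0.13, and for the combination Glud1 0.28 and Got1 0.046. Against UK5099 it gave Got1 0.20, against butyrate Got1 0.0080, Got2 0.015 and Gpt2 0.023, and for the interaction Slc38a2 -0.013. With protein-coding genes rescaled the turned values were Glul 0.10, Glud1 0.10 and Slc38a2 0.16 for butyrate, Glud1 0.017 for the combination and Got1 0.15 against UK5099. With exonic length they were Glul 0.034, Glud1 0.034 and Slc38a2 0.087 for butyrate and Got1 0.063 against UK5099. The cause of these turns was not tested. The exonic length setting covered 23913 genes and the protein-coding one 15914, and voom also replaces the log2(TPM + 1) scale by a weighted fit of fragments.

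Over the 12 leave-outs (648 coefficients) 28 calls were lost, 4 gained and 5 turned. Of the turned values, Gpt2 in the combination against UK5099 was -0.018 without UK5099 replicate 2 and -0.0082 without UK5099 replicate 1, with -0.017 without combination replicate 1, and its leave-outs ran up to 0.048. Slc38a2 there was -0.018 without UK5099 replicate 1 and -0.0039 without combination replicate 3, running up to 0.055. The Glul to Glud1 log2 difference with butyrate ran from -0.55 to -0.52 and was under the ratio limit of 0.05 without vehicle replicate 1 (adjusted p = 0.0171). The Slc1a5 to Slc38a2 difference ran from -0.012 to 0.056.

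Same-numbered replicates did not deviate together over the genes that averaged 1 TPM or more (18 pairs, r from -0.11 to 0.029, 0 over 0.1). Whether a number marks a shared origin cannot be told from this, as the correlation pools these genes and each group has 3 replicates. With the replicate number as a block, 5 members changed with butyrate and 8 each with UK5099 and the combination, the same counts as without it. Of all 24674 genes, 10951 changed with butyrate, 7672 with UK5099 and 12289 with the combination in that fit. Calls were lost for Gls2 (0.21, combination against UK5099, adjusted p = 0.0112, and interaction -0.35, adjusted p = 0.0159) and Glud1 (-0.11, combination against butyrate, adjusted p = 0.0132). The Got1 interaction passed at 0.18 (adjusted p = 0.00382). Depth limits Gls2, Gpt and Got1 most, which had under 1000 fragments in every sample.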

Other observations

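A search whose limits were chosen after the values of Glul had been seen counted genes of the same shape. Of 10105 other protein-coding genes that averaged 1 TPM or more, 5 lay within 0.3 (log2(TPM + 1)) of vehicle with each single drug and more than 1 below vehicle with the combination. They were Serinc3, Dnase1l2, Lrrc26, Cep85 and Prr15. Lrrc26 went from 71.5 TPM in vehicle to 30.8 TPM with the combination. No test was made of a list chosen this way.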
